A study of Rattus norvegicus with 12 samples.

Results

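The genes that encode the proteins of the mitochondrial ribosome were examined in rat forebrain tissue, the ganglionic eminences, taken on embryonic day 14 from 6 embryos homozygous for the BACHD transgene and from 6 wild-type embryos. The members were the probe sets annotated to a single gene symbol that begins with Mrpl or Mrps and a digit. There were 72 such probe sets among 29214 on the array, and they stood for 68 of 14506 named genes, 27 of the small subunit and 41 of the large subunit by symbol. A gene read by more than 1 probe set was represented by the one with the highest mean. RefSeq lists 78 coding genes with such a symbol, and those without a probe set of their own by this rule were not analysed here.

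The homozygous embryos carried, beside their own Htt gene, a transgene for the whole human huntingtin protein whose CAG tract has 96 repeats, and the wild-type embryos carried no transgene. The embryos came from 3 dams dissected on the same day, the medial and lateral eminences of 1 embryo went onto each array, and the labels gave neither the dam nor the sex of an embryo. The study looked for early transcriptional changes in transgenic embryos. Values are log2 intensities, and all differences are homozygous minus wild type on that scale.

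The mitochondrial ribosome translates the few proteins that mitochondrial DNA encodes, all of them subunits of the respiratory chain and of ATP synthase. Its RNA comes from the mitochondrial genome, but every one of its proteins is encoded in the nucleus, made in the cytosol and imported. Some of these proteins descend from those of bacterial ribosomes, and others were added in the mitochondrial lineage and have no bacterial counterpart. Inherited loss of single members, MRPS22, MRPS16, MRPS34 and MRPL44 among them, causes combined respiratory chain deficiencies in humans, often with disease of brain or heart.

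Promoters of such genes are known to hold sites for the transcription factors NRF1, GABP (an ETS family factor) and YY1. RefSeq promoter windows of the rat assembly GRCr8, from 250 bases before to 50 bases after a gene's start, were found for 54 of the 68 genes, in 56 windows. The sequences shown are the stretch between the starts of Mrpl46 and Mrps11, which are direct neighbours and run in opposite directions, and the 100 bases before the starts of Mrpl23, Mrps31 and Mrpl48, which hold the ETS letters CCGGAAG on either strand (capitals).
Mrpl46 and Mrps11, chr1:142117031-142117263, + strand, from the start of Mrpl46 to that of Mrps11: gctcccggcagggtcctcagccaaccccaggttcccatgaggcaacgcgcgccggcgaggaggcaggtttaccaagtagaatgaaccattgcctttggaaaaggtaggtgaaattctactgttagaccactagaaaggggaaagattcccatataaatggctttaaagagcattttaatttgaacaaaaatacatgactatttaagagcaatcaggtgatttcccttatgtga
Mrpl23, chr1:207116830-207116929, + strand: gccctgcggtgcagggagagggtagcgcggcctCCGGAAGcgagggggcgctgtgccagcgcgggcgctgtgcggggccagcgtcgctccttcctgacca
Mrps31, chr16:76324066-76324165, - strand: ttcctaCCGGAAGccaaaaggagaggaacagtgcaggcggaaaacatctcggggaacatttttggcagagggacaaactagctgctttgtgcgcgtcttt
Mrpl48, chr1:164351377-164351476, - strand: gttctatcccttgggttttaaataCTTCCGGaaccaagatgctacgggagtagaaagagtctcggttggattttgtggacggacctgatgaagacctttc

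Searched on both strands, CCGGAAG occurred in 18 of the 56 windows (32.1%), against 10.7% of 21842 windows of all coding genes. The NRF1 letters CGCANGCG occurred in 15 windows (26.8%), against 9.88% of all. The YY1 letters ATGGCGGC occurred in 12 windows (21.4%), against 3.31% of all. In all 12 they lay past the start of the gene and on its own strand, beginning between bases 4 and 42. Whether they are sites of the factor there was not tested. A window could hold several of the motifs, and 36 windows (64.3%) held at least 1, against 20.7% of all. A match of letters does not show binding. The windows of all coding genes were not matched for base composition. The NRF1 and YY1 letters were shortened after longer forms had been searched. The stretch between Mrpl46 and Mrps11 held none of the 3, and the YY1 letters of Mrpl46 lay past its start, outside the stretch shown. Members with the ETS letters lay on both sides of 0 between genotypes, 12 above and 6 below, with a median difference of 0.0143. Those with the NRF1 letters had 6 above and 9 below (median -0.0153), and those with the YY1 letters 8 above and 4 below (median 0.0312). The 3 genes shown with ETS letters are Mrpl23, which rose, and Mrps31 and Mrpl48, whose differences were below 0.

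Htt, the rat gene for huntingtin, served to check the labels. Whether its probe set also reads the transcript of the human transgene was not tested, so its difference is not assigned to the rat gene. The lowest, median and highest log2 levels of Htt were 10.16, 10.25 and 10.40 in homozygous embryos, against 9.77, 10.00 and 10.07 in wild-type embryos. The groups did not overlap (exact permutation test, 2-sided, p = 0.00216, the smallest possible with these group sizes). The difference was 0.30 ± 0.056 (SE), with an adjusted p of 0.0408 in limma. With 1 array left out the adjusted p ran from 0.0338 to 0.0864 and was below 0.05 only without wild type 3. In these fits the unadjusted p of Htt in limma ran from 9.56e-05 to 0.00039, against 0.000105 with all arrays. Calls over all probe sets, 124 with all arrays, ran from 4 to 200. Array medians lay between 7.69 and 7.76 in homozygous arrays, against 7.67 and 7.71 in wild-type arrays, so that a difference common to all genes is not separable from the scaling.

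The tissue was checked by markers. All 11 measured genes of ganglionic eminence identity, among them Dlx5 and Nkx2-1, were brighter than the median probe set, and their mean level was 11.11 to 11.24 in homozygous arrays and 11.09 to 11.21 in wild-type arrays. Of these, Nkx2-1 of the medial eminence differed by 0.16 ± 0.040 and Dlx5 by -0.18 ± 0.080 (SE, adjusted p = 0.108 and 0.321 in limma). In bulk tissue, fewer cells of a type and less RNA per cell cannot be told apart. The lists of other cells had no member past the threshold. Their counts at an unadjusted p under 0.05 stand against 10.2% higher and 4.81% lower over all probe sets. All 10 pallial and all 12 vessel genes were brighter than the median probe set. Of the 14607 probe sets that bright, 1578 were higher and 1214 lower, 19.1% together. Of 10 pallial genes 1 was higher and 3 lower at an unadjusted p under 0.05, with mean levels of 9.65 to 9.85 in homozygous arrays and 9.65 to 10.01 in wild-type arrays. Neurod6 differed by -0.36 ± 0.105 and Slc17a7 by -0.25 ± 0.083 (SE), while 3 of the 10 stood above 0. Of 11 choroid plexus and roof plate genes, all dimmer than the median probe set, 3 were higher and none lower (6.52 to 6.71 in homozygous and 6.48 to 6.60 in wild-type arrays). Ttr differed by 0.17 ± 0.058 and Calml4 by 0.17 ± 0.075 (SE), while 1 of the 11 stood below 0. Of 11 erythroid genes none was higher and 2 lower (9.30 to 9.56 in homozygous and 9.32 to 9.86 in wild-type arrays). These 2 were Hbb at -0.49 ± 0.147 and Hbb-b1 at -0.64 ± 0.234 (SE), while 5 of the 11 stood above 0. Both were highest in wild type 2, at 10.37 and 9.98, against at most 9.70 and 9.32 in the other wild-type arrays. Of 12 vessel genes 2 were higher, of 10 genes of meninges and mesenchyme 1, and of 12 of microglia none, with none lower in these 3 lists. Aldh1a2 and Col1a1 of meninges and mesenchyme differed by 0.21 ± 0.079 and 0.11 ± 0.063 (SE), with 2 of the 10 below 0. C1qa and Fcer1g of microglia differed by 0.06 ± 0.039 and -0.21 ± 0.144. Pecam1 of vessels differed by 0.08 ± 0.034, with 5 of the 12 vessel genes below 0. One of the vessel genes was Cdh5, of endothelial junctions, which differed by 0.15 ± 0.033 (SE) without overlap, with an adjusted p of 0.0641 in limma that fell below 0.05 in 3 of 11 alternative settings. The part of other cells in the results on ribosomal genes was not tested.

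All 68 members were brighter than the median probe set of the array (7.71), so none had to pass a filter on low values. Their mean level over the 12 arrays lay between 7.95 and 12.22, with medians of 9.83 for the small and 9.96 for the large subunit. Probe sets differ in how well they bind, so the order of levels between genes is that of signals, not of transcripts. The brightest large-subunit genes were Mrpl42 and Mrpl51, proteins without a bacterial counterpart, at 12.21 ± 0.061 and 11.50 ± 0.042 in homozygous embryos, against 12.24 ± 0.179 and 11.49 ± 0.042 in wild-type embryos (SD, n = 6 each). The brightest small-subunit genes were Mrps21, at 12.14 ± 0.016 in homozygous and 12.14 ± 0.069 in wild-type embryos, and Mrps24, the counterpart of bacterial S3. RefSeq also lists genes named Mrpl41l1, Mrpl42l1 and Mrps21l, and where such copies share sequence with Mrpl41, Mrpl42 and Mrps21, the probes may read them too. The dimmest of the small subunit were Mrps28, at 7.95 ± 0.102 in homozygous and 7.94 ± 0.089 in wild-type embryos, and Mrps34, and those of the large subunit were Mrpl2 and Mrpl44.

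Between genotypes, members went both ways and by little. Of the 68, 38 stood above 0 and 30 below, and the differences ran from -0.27 (Mrpl34) to 0.25 (Mrpl54), at most 1.21-fold, with 1 gene past 1.2-fold. Their median was 0.0102, against 0.0294 over all probe sets and 0.0210 over the brightest probe set of each named gene. Among probe sets brighter than the median, as all members are, it was 0.00951, and among other named genes that bright it was 0.0021. The median size of a difference, whatever its sign, was 0.0609 in the members and 0.0531 over all named genes.

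Only Mrpl23 passed the adjusted threshold of 0.05 in limma, upward, which is 1 of 68 members where 0.424% of all probe sets passed (0.226% upward and 0.199% downward). Of the 14607 probe sets brighter than the median, 54 passed upward and 56 downward. At an unadjusted p under 0.05 there were 23 members (33.8%), against 15.0% of all probe sets and 19.1% of those brighter than the median. Of the 23, 11 were higher, where 10.2% of all probe sets were, and 12 lower, where 4.81% were. Among probe sets brighter than the median, as all members are, 10.8% were higher and 8.31% lower. Another scaling changed the split: once every array was centred on its median it was 6 higher and 15 lower, and it was 10 and 14 both with quantile normalization and with cyclic loess. The split over all probe sets turned as well, to 4.06% higher and 10.6% lower with centred arrays, 6.19% and 7.06% with quantile normalization and 6.33% and 7.12% with cyclic loess. In 5 members the groups did not overlap (7.35%), against 1.86% of all probe sets (1.16% higher and 0.698% lower). Among probe sets brighter than the median, the share without overlap was 3.14%. Of the 5 members, Mrpl54 was higher, and Mrps22, Mrps31, Mrps16 and Mrpl41 were lower in all homozygous embryos. Members are not independent of each other, since they share the arrays.

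**Figure D1:**
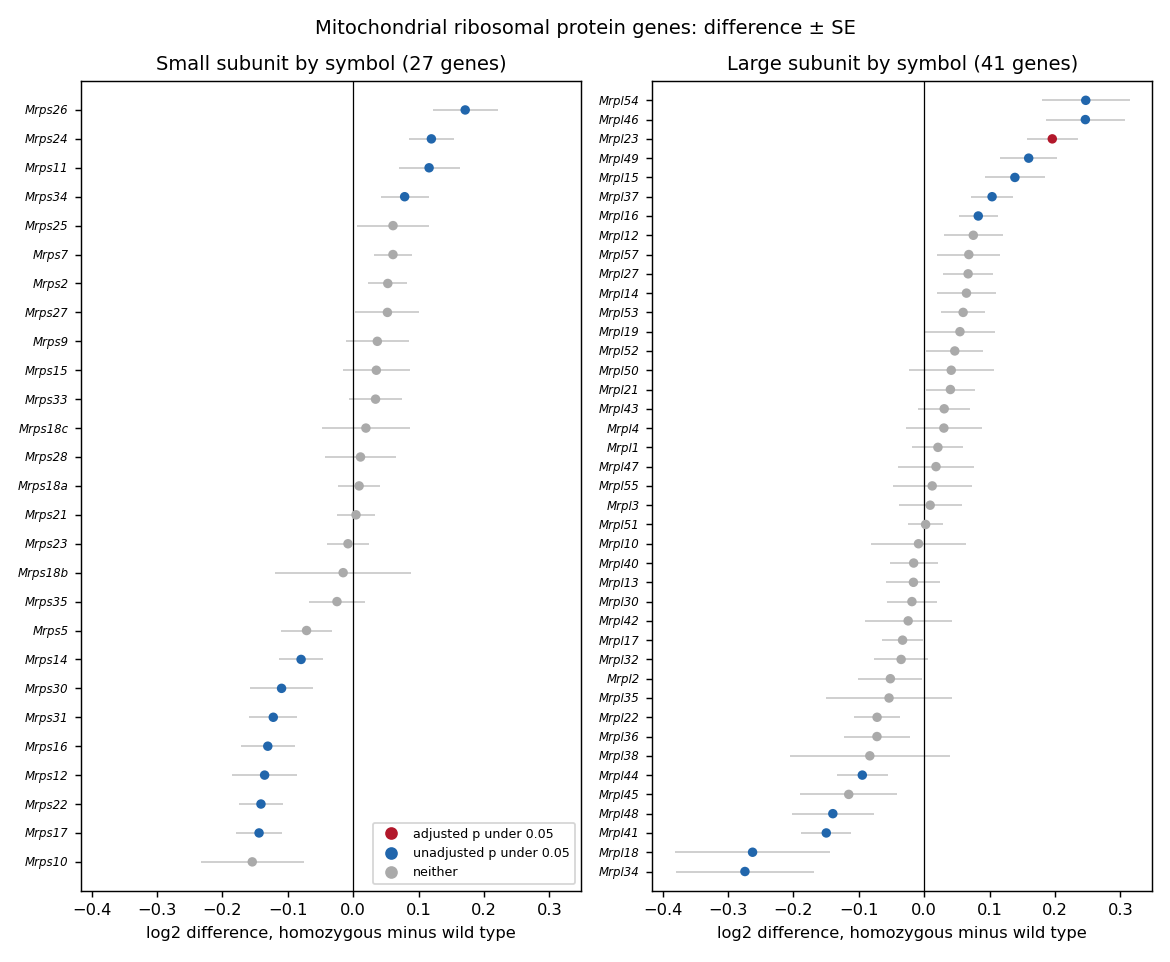
Log2 difference, homozygous minus wild type, of the 27 small-subunit genes (left panel) and 41 large-subunit genes (right panel), with bars of 1 SE. Colours mark an adjusted p under 0.05 (Mrpl23 only), an unadjusted p under 0.05 (22 further genes) and neither; genes of each subunit lie on both sides of 0.

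Mrpl23 encodes the counterpart of bacterial L23, which sits at the exit of the tunnel through which the new protein leaves the large subunit. Its levels in homozygous embryos 1 to 6 were 10.90, 10.93, 11.02, 11.03, 11.00 and 10.96, against 10.81, 10.91, 10.78, 10.71, 10.80 and 10.66 in wild-type embryos 1 to 6. The groups overlapped only in that wild type 2 lay just above homozygous 1. The difference was 0.20 ± 0.039 (SE, 1.15-fold, adjusted p = 0.0473 in limma). Leaving out any single homozygous array raised the adjusted p above 0.05, to 0.0628, 0.0841, 0.125, 0.116, 0.109 and 0.0777 for arrays 1 to 6. Of the wild-type arrays, leaving out 1, 3, 4, 5 or 6 gave 0.0722, 0.0579, 0.0963, 0.0814 or 0.0904, and leaving out 2 gave 0.0258. It was 0.0844 with arrays centred on their medians, at a difference of 0.16. With 1 array left out, the unadjusted p of Mrpl23 in limma ran from 1.92e-05 to 0.000677, against 0.000192 with all arrays. Its difference ran from 0.173 to 0.222. Calls over all probe sets, 124 with all arrays, were 4 to 59 without 1 homozygous and 4 to 200 without 1 wild-type array. An adjusted p depends on the other probe sets as well.

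The other large-subunit genes with the lowest p among those above 0 were Mrpl46, Mrpl54, Mrpl49 and Mrpl37, none of which has a bacterial counterpart, and none passed. Mrpl46, a protein of the central protuberance at the top of the subunit, had levels of 9.99, 10.16, 10.33, 10.11, 10.11 and 10.10 in homozygous embryos 1 to 6, against 9.99, 10.05, 9.91, 9.85, 9.75 and 9.76 in wild-type embryos 1 to 6. Apart from homozygous 1, every homozygous value lay above every wild-type value, and the difference was 0.25 ± 0.060 (SE, adjusted p = 0.0951 in limma). Mrpl54 had 11.54 as its lowest, 11.57 as its median and 11.67 as its highest level in homozygous embryos, against 11.07, 11.41 and 11.51 in wild-type embryos. The groups did not overlap, but wild type 1 and 2, at 11.14 and 11.07, lay far below the other wild-type arrays, and the adjusted p was 0.121 at a difference of 0.25 ± 0.067. Mrpl49 and Mrpl37 differed by 0.16 ± 0.044 and 0.10 ± 0.033 (adjusted p = 0.123 and 0.169).

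Mrps11, the counterpart of bacterial S11 and the neighbour of Mrpl46 across the stretch shown above, was read by 2 probe sets, both higher in homozygous embryos. The brighter had a lowest, median and highest level of 10.32, 10.49 and 10.58 in homozygous embryos, against 10.24, 10.38 and 10.44 in wild-type embryos, so that the groups overlapped (0.12 ± 0.047, SE, adjusted p = 0.269 in limma). The dimmer had 9.86, 9.90 and 9.93 in homozygous embryos, against 9.64, 9.74 and 9.85 in wild-type embryos, without overlap (0.15 ± 0.034, adjusted p = 0.0653). Mrpl46 and Mrps11 were thus both above 0, without passing. For both genes the lowest homozygous level, by the brighter set of Mrps11, was that of homozygous 1. The other neighbours among the members, Mrps18a and Mrpl14, which lie 3 coding genes apart in gene order, differed by 0.0091 ± 0.032 and 0.06 ± 0.045.

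Of the small-subunit genes above 0, Mrps26, a protein without a bacterial counterpart, differed by 0.17 ± 0.050 (SE, adjusted p = 0.141 in limma) and Mrps24 by 0.12 ± 0.034 (adjusted p = 0.134). Mrps24 stood at 11.06 ± 0.063 in homozygous and 10.94 ± 0.052 in wild-type embryos (SD, n = 6 each). Mrps34 and Mrps7, the counterpart of bacterial S7, differed by 0.08 ± 0.037 and 0.06 ± 0.029.

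Of the members below 0, Mrps22 and Mrps17 of the small subunit had the smallest p, while Mrpl34 and Mrpl18 of the large subunit had the lowest differences. Mrps22, of the part of the subunit that mitochondria added, had levels of 10.28, 10.25, 10.26, 10.17, 10.30 and 10.10 in homozygous embryos 1 to 6, against 10.36, 10.35, 10.38, 10.35, 10.37 and 10.40 in wild-type embryos 1 to 6. The wild-type values lay close together (SD 0.0186) and above every homozygous value, and the difference was -0.14 ± 0.034 (SE, adjusted p = 0.0883 in limma). Mrps17, the counterpart of bacterial S17, differed by -0.14 ± 0.036 (adjusted p = 0.0968), with 10.30 as the highest homozygous and as the lowest wild-type level, which overlapped slightly.

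Mrps31, another protein without a bacterial counterpart, had a lowest, median and highest level of 8.82, 8.91 and 8.97 in homozygous embryos, against 8.99, 8.99 and 9.08 in wild-type embryos (-0.12 ± 0.037, SE, adjusted p = 0.156 in limma). Mrps16, the counterpart of bacterial S16, had 9.71, 9.75 and 9.81 in homozygous embryos, against 9.82, 9.84 and 10.03 in wild-type embryos (-0.13 ± 0.041, adjusted p = 0.172). In neither did the groups overlap, though for Mrps16 the gap between the highest homozygous and the lowest wild-type value was under 0.01. Mrps12, the counterpart of the protein S12 at the decoding centre of bacterial ribosomes, differed by -0.14 ± 0.050 (adjusted p = 0.232).

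Of the large subunit, Mrpl41 was read by 2 probe sets that gave -0.15 ± 0.038 and -0.16 ± 0.041 (SE, adjusted p = 0.106 and 0.118 in limma). The brighter had 9.93, 10.01 and 10.05 as its lowest, median and highest level in homozygous embryos, against 10.08, 10.13 and 10.29 in wild-type embryos. The groups did not overlap by that set and overlapped by the other. Mrpl34, the counterpart of bacterial L34, had the lowest difference of all members, -0.27 ± 0.105, but its spread was large. Its lowest, median and highest levels were 10.40, 10.50 and 10.64 in homozygous embryos, against 10.47, 10.69 and 11.20 in wild-type embryos, where wild type 1 and 2 were the highest. Mrpl18, a protein of the central protuberance, varied in both groups, at 8.59 ± 0.277 in homozygous and 8.86 ± 0.193 in wild-type embryos (SD, n = 6 each). Mrpl48, of the same part of the subunit, differed by -0.14 ± 0.063, and Mrpl44, which resembles ribonuclease III, by -0.09 ± 0.039.

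**Figure D2:**
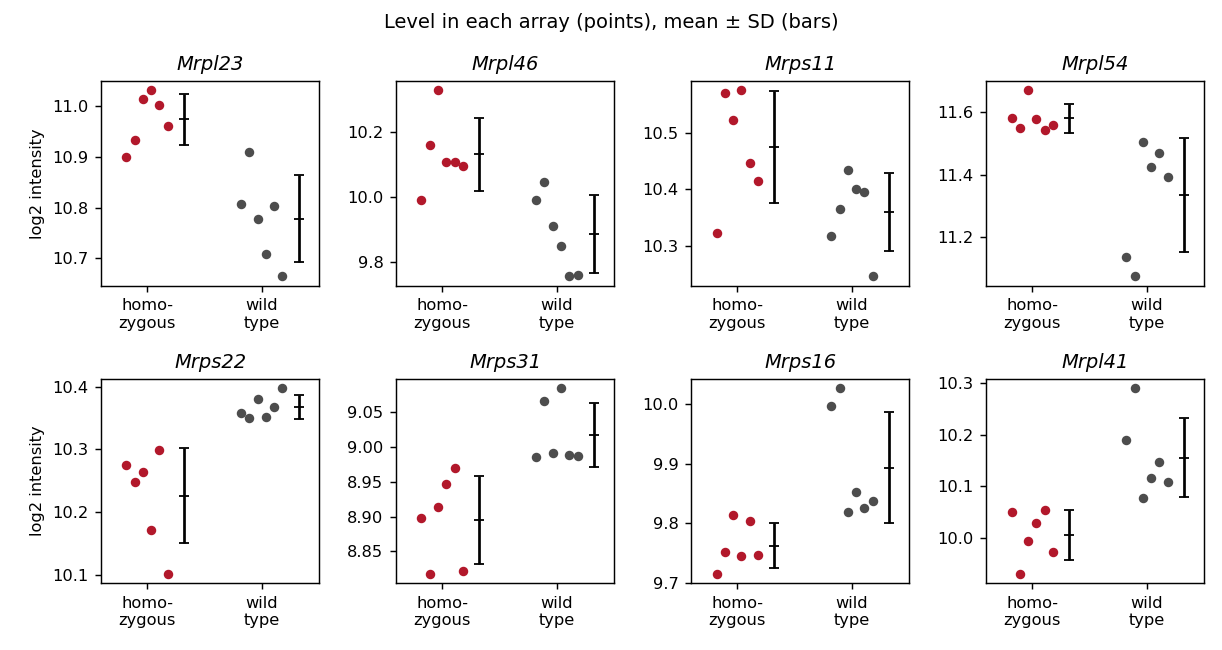
Log2 intensity of 8 members in each array (points, homozygous embryos left of wild-type embryos, arrays 1 to 6 from left to right within a group) with the mean and SD; the vertical axes differ between genes and do not start at 0. Mrpl23 is the gene that passed the adjusted threshold, and the groups of Mrpl54, Mrps22, Mrps31, Mrps16 and Mrpl41 do not overlap.

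Small and large subunit genes did not stand apart in their medians. The median difference was 0.00908 over the 27 small-subunit genes and 0.0122 over the 41 large-subunit genes, and the small minus the large median was -0.00316. At an unadjusted p under 0.05 the small subunit had 4 genes higher and 7 lower, and the large subunit 7 higher and 5 lower. These were 40.7% and 29.3% of their genes, against 15.0% of all probe sets and 19.1% of those brighter than the median. Of the 5 members without overlap, the small subunit held 3, all lower, and the large subunit 1 higher and 1 lower. Those shares were 11.1% and 4.88%, against 1.86% of all probe sets and 3.14% of the brighter ones. The mean of the small minus that of the large subunit in each array, after each gene's mean was taken off, lay between -0.0218 and -0.00136 in homozygous arrays, against -0.0324 and 0.0378 in wild-type arrays. The homozygous range thus lay within the wild-type range, whose low end was wild type 1. The value was below 0 in all 6 homozygous arrays and in wild type 1 and 2 (-0.0324 and -0.0146). It was above 0, at 0.00519 to 0.0378, in wild type 3 to 6. Wild type 1 and 2 were singled out only after the values were seen, so no separation of the genotypes was read from this. With 1 array left out, the small minus the large median ran from -0.0175 to 0.0121 and the small-subunit median from -0.00753 to 0.0203. The small-subunit median was also below 0 with quantile normalization (-0.00378) and with arrays centred on their medians (-0.0288). No test was made over these sets, since the genes were chosen as a set with earlier results known.

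Symbols do not always give the place of a protein. Structures of the mammalian mitochondrial ribosome place MRPS30 and MRPS18A in the large subunit. Counted so, the median difference was 0.0112 over 25 small-subunit genes and 0.00914 over 43 large-subunit genes, and the order of the medians turned. Mrps30 differed by -0.11 ± 0.048 (SE, adjusted p = 0.307 in limma). The 3 genes related to bacterial S18 were all near 0: Mrps18c, whose protein takes the place of S18, by 0.02 ± 0.067, Mrps18a by 0.0091 ± 0.032 and Mrps18b by -0.02 ± 0.104. Mrps18b stood at 9.63 ± 0.040 in homozygous and 9.64 ± 0.293 in wild-type embryos (SD, n = 6 each), a much wider spread in wild type, where arrays 1 and 2 had 10.02 and 9.99 and the other 4 had 9.58 or less.

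By origin, the 39 genes with a bacterial counterpart had a median difference of 0.0112, with 5 higher and 6 lower at an unadjusted p under 0.05, and the 29 without one had 0.00908, with 6 higher and 6 lower. Of the S18 relatives, only Mrps18c was counted as having a counterpart, and Mrps18a and Mrps18b were counted without one. At that p these were 28.2% and 41.4% of the genes, against 15.0% of all probe sets and 19.1% of those brighter than the median. Of the 5 members whose groups did not overlap, 4 have no bacterial counterpart, and the exception is Mrps16. Without overlap, 1.86% of all probe sets and 3.14% of the brighter ones were found. With only 5 such members, no pattern by origin was read from this count. Mrpl40 and Mrpl42 were read by 2 probe sets each, whose differences lay on either side of 0: -0.02 ± 0.037 and 0.03 ± 0.033 for Mrpl40 and -0.02 ± 0.067 and 0.06 ± 0.043 for Mrpl42 (SE, the brighter set first).

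**Figure D3:**
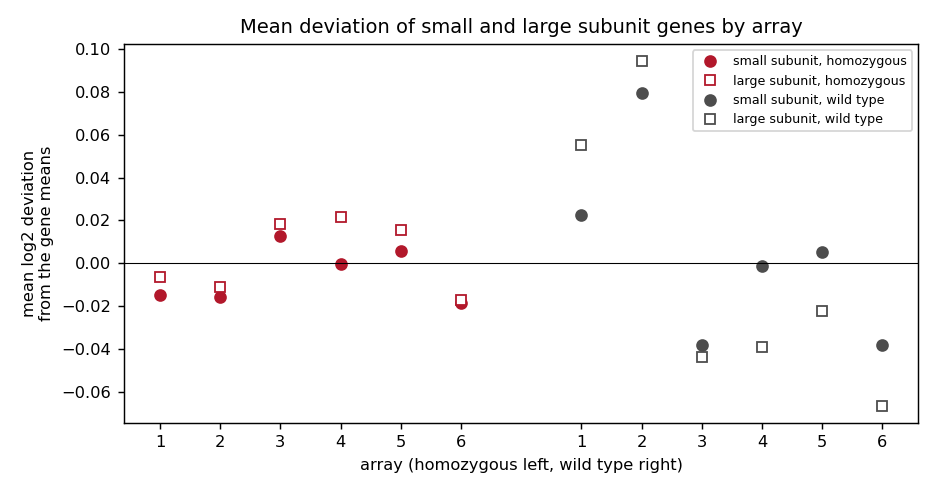
Mean over the small-subunit genes (filled circles) and the large-subunit genes (open squares) of each array's log2 deviation from the gene means, for homozygous arrays 1 to 6 (left) and wild-type arrays 1 to 6 (right). Wild type 1 and 2 stand highest, at 0.0227 and 0.0796 for the small and 0.0551 and 0.0942 for the large subunit, and the homozygous arrays lie closer together.

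Arrays differed in their level of members as a whole, and more so in wild type. The mean deviation over the 68 genes was 0.000148 ± 0.0150 in homozygous arrays and -0.000148 ± 0.0548 in wild-type arrays (SD, n = 6 each). In wild type it was 0.0423 in array 1 and 0.0884 in array 2, and between -0.0550 and -0.0112 in the other 4, while all homozygous arrays lay between -0.0177 and 0.0163. Wild type 2 held the highest value of 26 of the 68 members, and wild type 6 the lowest value of 17. The spread was larger in wild type for 51 of 68 members (75%), with median SDs of 0.0599 in homozygous and 0.0863 in wild-type embryos. The share was 61.7% over all probe sets and 63.7% over the brightest probe set of each named gene.

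In 20 members (29.4%) wild type 1 and 2 both lay above all other 10 arrays, against 9.77% of all probe sets, and in 5 (7.35%) both lay below, against 10.6%. Over the brightest probe set of each named gene, as used for the members, the shares were 13.4% above and 9.75% below. The 20 include Mrpl34, Mrpl42, Mrps18b, Mrps16, Mrps17 and Mrpl41, and the 5 are Mrpl50, Mrpl51, Mrpl54, Mrps18c and Mrps26. The mean of dim minus that of bright probe sets, a property of a whole array, was also lowest in these arrays, at -5.94 and -5.92, against -5.91 to -5.80 in homozygous arrays and -5.87 to -5.81 in the other wild-type arrays. The part of this property in the members' levels was not tested, beyond the fit with it as a covariate, in which no member passed.

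The counts of members depended on these arrays. The members as a whole stood highest in wild type 1 and 2. Leaving these arrays out therefore lowers the wild-type mean of the members and moves their differences upward on average. Counts from that fit are no separate support for higher levels in homozygous embryos. Without wild type 1 and 2, an alternative chosen after seeing the data, 24 members were higher and 7 lower at an unadjusted p under 0.05, against 10.1% and 5.32% of all probe sets in that fit. Then 5 members passed the adjusted threshold, all higher and all of the large subunit: Mrpl23, Mrpl15, Mrpl46, Mrpl54 and Mrpl57. Calls rose over the whole array too, to 1.99% of all probe sets. In 6 members all homozygous values lay above all remaining wild-type values, against 3.31% of all probe sets. In 15 members the sign of the difference turned, and those with the lowest differences among them were Mrpl45, at 0.0112 without these arrays and -0.12 with them, and Mrpl38, of the central protuberance, at 0.13 and -0.08. The medians were then 0.00488 for the small and 0.0426 for the large subunit. Mrps18b turned to 0.17, with an adjusted p of 0.0507 in limma.

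**Figure D4:**
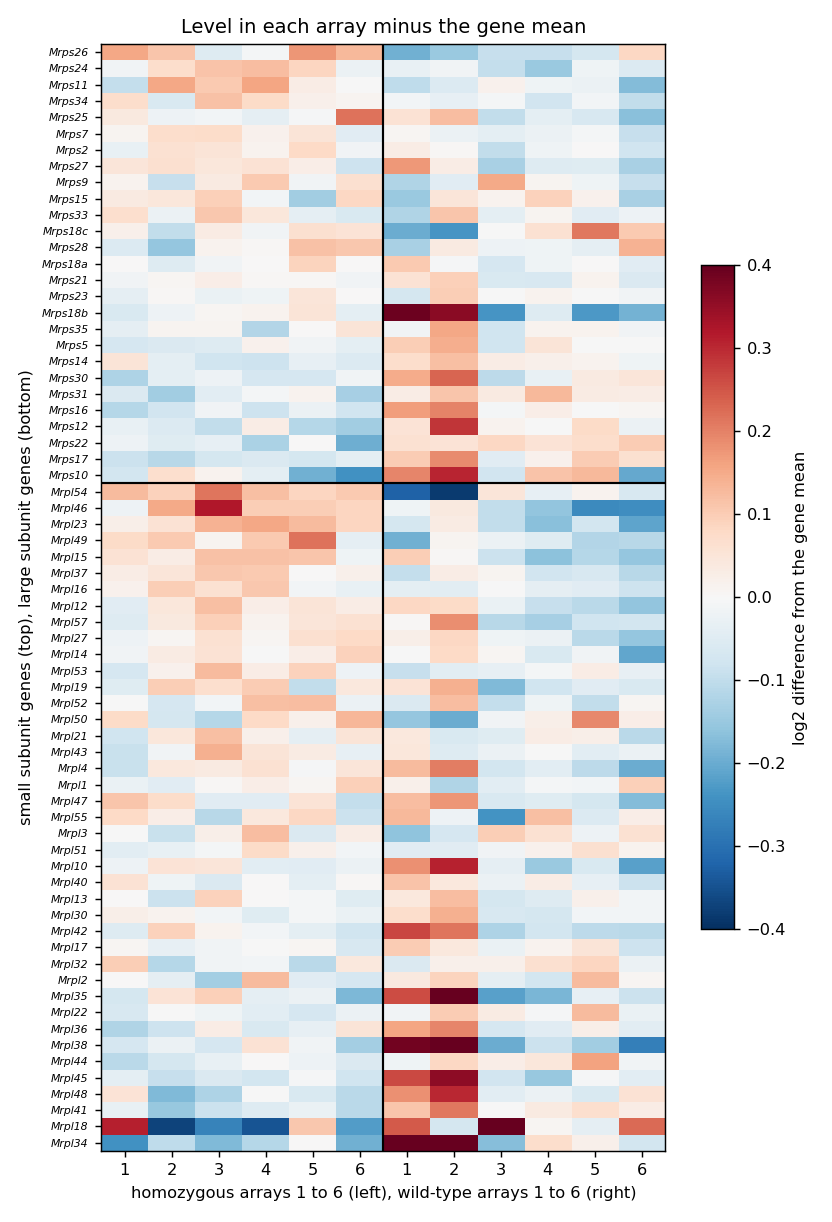
Log2 level of each of the 68 members (rows, small subunit above the line, large subunit below, each sorted by difference) in homozygous arrays 1 to 6 (left) and wild-type arrays 1 to 6 (right), minus the gene's mean over all arrays; colours are capped at 0.4 either way. Wild type 1 and 2 form the strongest columns, with many members high and Mrpl54 and Mrps18c low.

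Genes listed from general knowledge around the mitochondrial ribosome were measured, and none passed the adjusted threshold in either direction, where 0.424% of all probe sets did. Not every listed gene acts on that ribosome, and the counts include those that do not. Counts at an unadjusted p under 0.05 stand against 10.2% higher and 4.81% lower over all probe sets. Most of the listed genes were brighter than the median probe set. Of the 14607 probe sets that bright, 1578 were higher and 1214 lower, 19.1% together. Of 5 mitoribosomal proteins under other symbols, 1 was lower at an unadjusted p under 0.05: Chchd1, of the small subunit, at -0.20 ± 0.071 (SE), or -0.13 without homozygous 3, while Gadd45gip1, of the large subunit, stood at -0.04 ± 0.028. Of 11 translation factors and mRNA-binding proteins 1 was lower, the initiation factor gene Mtif2 at -0.10 ± 0.043, and the elongation factor gene Tufm stood at 0.08 ± 0.041. Of 27 genes of ribosome assembly and RNA modification 5 were higher and 3 lower, among them Mpv17l2 at 0.15 ± 0.048 and Lyrm7, known as an assembly factor of respiratory complex III, at 0.19 ± 0.047.

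Of 15 genes of mitochondrial aminoacyl-tRNA synthesis, which load the tRNAs, 1 was higher and 1 lower: Aars2 at 0.12 ± 0.045 and Gars1, which serves cytosol and mitochondria, at -0.08 ± 0.024 (SE). Of 21 genes of mitochondrial transcription and RNA processing 2 were higher and 4 lower. They were led by Tfb2m and Tfam, which let the mitochondrial RNA polymerase start transcription, at -0.20 ± 0.054 and -0.12 ± 0.033 (adjusted p = 0.120 and 0.131 in limma). Among the genes named from these lists, the groups did not overlap for Tfam, downward, or for Lyrm7 and Aars2, upward, and for Tfb2m they overlapped. Of 12 regulators of nuclear genes for mitochondria 1 was lower, Myc at -0.19 ± 0.070, and the next, Creb1, stood at -0.06 ± 0.030.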

How the data were processed

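The authors deposited a log2 intensity for each probe set on each array, made with Partek 6.4 and RMA per the submitters' processing notes; the sources used here do not give order, settings or genome build. The scale was read from the values. Genes were named from the platform annotation, and all 68 members matched RefSeq (GRCr8) by Entrez number. With 6 arrays a group, the median SE of a member's difference was 0.0446.

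All 29214 probe sets were fitted with limma 3.58.1 in R 4.3.3 (lmFit, eBayes with an intensity trend), genotype as the only factor, 2-sided, Benjamini-Hochberg adjusted over all probe sets. The fit was tested on simulated data. Groups came from the labels, as did replicate numbers, which did not pair the arrays (same-numbered correlations of deviations -0.0817 to 0.256), so no block was used. The labels name embryos as replicates. The limma fit and the permutation test treat the embryos as independent. Litter mates from the 3 dams could not be modelled, since the dam of an embryo was not given. The NRF1 and YY1 letters are shorter forms, adopted after longer ones had been searched. Lists were described by counts and medians. Members and lists were chosen with earlier results of these data known. Named members were those past the threshold, the 5 with the smallest p per direction and subunit, the 2 brightest and dimmest per subunit, those with several probe sets and the S18 relatives with Mrps30, and for other lists the 2 genes with the smallest p; Mrpl14, Mrpl15, Mrpl38, Mrpl45, Mrpl50 and Mrpl57 were named after their values were seen. Alternatives are in the closing section. Figures were drawn with matplotlib 3.10.9.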

Additional observations from a re-analysis of the deposited data

Results flagged for a closer look

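In 6 of 122 groups of 6 arrays, 1 array stood apart from the other 5 by Dixon's test, where chance flags about 1 in 20 groups. Among the members these were Mrpl54 in homozygous 3, at 11.67, against 11.54 to 11.58 in the other homozygous arrays, and Mrps12 in wild type 2, at 10.06, against 9.75 to 9.85 in the other wild-type arrays. Among the other genes they were C1qa in homozygous 1 at 7.46, Chchd1 in homozygous 3 at 10.91, Lyrm7 in wild type 2 at 8.43 and Mtif2 in wild type 1 at 8.87. Leaving out each of these arrays in turn left Mrpl54, Mrps12, C1qa, Chchd1, Lyrm7 and Mtif2 on the same side of 0.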

How the results depend on the processing

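Of 68 members, the number past the adjusted threshold was 1 in the fit reported and 0 with the replicate block, without an intensity trend, without variance moderation and with the dim and bright covariate. It was 3 with array weights, 4 with arrays centred on their medians (Mrps17, Mrps22, Mrps31 and Mrpl41, all lower), 5 without wild type 1 and 2, and 0 to 1 with 1 array left out. The share of all probe sets called, 0.424% in the fit reported, was 1.42% with array weights, 1.03% with centred arrays and 1.99% without wild type 1 and 2. That share was 0.0616% with the replicate block, 0.0103% without the trend, 0.253% without moderation and 0.113% with the covariate. With 1 array left out it ran from 0.0137% to 0.685%. Of other genes, Gars1 passed with centred arrays, array weights and without wild type 1 and 2 (adjusted p = 0.0442, 0.0382 and 0.0305 in limma), Tfam with centred arrays (0.0328), Tufm without wild type 1 and 2 (0.0294), and Cdh5 with the filter on dim probe sets, without moderation and with array weights (0.0314, 0.0442 and 0.0362). Members higher at an unadjusted p under 0.05 numbered 6 with centred arrays and 24 without wild type 1 and 2, and lower ones 7 without wild type 1 and 2 and 6 with the covariate. Members without overlap upward numbered 0 with centred arrays, 2 with quantile normalization, cyclic loess or the mean of all probe sets, 6 without wild type 1 and 2, and 1 to 3 with 1 array left out. The small-subunit median was -0.0288 with centred arrays, and the small minus large median was -0.0377 without wild type 1 and 2. Htt stood at 0.295 with the replicate block, without the trend and without moderation (adjusted p = 0.130, 0.0890 and 0.0837 in limma or its unmoderated form), at 0.257 with centred arrays (0.0555), at 0.285 with the covariate (0.0759) and at 0.256 to 0.316 with 1 array left out. The replicate numbers did not pair the arrays, with 1 of 6 homozygous arrays correlating best with its own number, and the block lowered the calls over all probe sets to 18, against 124 without it.

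Over all 68 members, 15 turned sign without wild type 1 and 2, 14 with centred arrays, 13 with the covariate and 11 with array weights. Of named genes, Fcer1g turned to 0.0158 without wild type 1 and 2, and the members that turned follow. Centred arrays gave -0.0357 for Mrpl51, -0.0288 for Mrps18a, -0.0184 for Mrps18c, -0.0335 for Mrps21 and -0.0266 for Mrps28. Quantile normalization gave -0.00823 for Mrpl51, -0.0142 for Mrps21 and -0.0191 for Mrps28, and cyclic loess -0.0226 for Mrps28. Array weights gave 0.0399 for Mrpl42, -0.00486 for Mrpl51, 0.0903 for Mrps18b and -0.0485 for Mrps18c, and the mean of all probe sets 0.00898 for Mrpl40 and 0.0174 for Mrpl42. Without wild type 1 and 2 the values were 0.0194 for Mrpl40, 0.0897 for Mrpl42, -0.0196 for Mrpl51, 0.169 for Mrps18b, -0.0847 for Mrps18c and -0.0101 for Mrps28. With the covariate they were 0.0270 for Mrpl40, 0.0464 for Mrpl42, -0.0178 for Mrpl51, 0.0958 for Mrps18b, -0.0523 for Mrps18c and -0.0331 for Mrps28. With 1 array left out the ranges were -0.0348 to 0.00528 (Mrpl40), -0.0514 to 0.0265 (Mrpl42), -0.0127 to 0.0151 (Mrpl51), -0.00753 to 0.0310 (Mrps18a), -0.0638 to 0.0614 (Mrps18b), -0.0258 to 0.0635 (Mrps18c), -0.00830 to 0.0241 (Mrps21) and -0.0138 to 0.0430 (Mrps28). The cause of these changes was not tested. Leaving out wild type 1 and 2 and the covariate were chosen after seeing the data.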
